A study of Mus musculus with 3 samples.

Results

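The HES and HEY genes and Nrarp, grouped here as Notch effectors, were examined for CHD7 and SOX2 peaks. CHD7 is a chromatin remodeler and SOX2 a transcription factor. The 8 genes were Hes1, Hes5, Hes6, Hes7, Hey1, Hey2, Heyl and Nrarp, of 21887 protein-coding genes in the annotation. Every peak within 1 kb of an end of such a gene, inside it, or within 50 kb of it was taken, which gave 32 of 33035 CHD7 peaks and 105 of 155548 SOX2 peaks. No peak counted for more than 1 of the genes. The peaks come from CUT&Tag, in which an antibody tethers a transposase to chromatin, on cells of 34 pooled otocysts (the vesicles that form the inner ear) of wild-type mouse embryos at E10.5. One portion was stained for CHD7, one for SOX2, and a control went without primary antibody. The control is not analysed here, and whether the authors used it in calling the peaks is not given. There was 1 library per antibody and no replicate, and therefore no p-value is given. The cells were not sorted, and a peak cannot be assigned to a cell type of the otocyst or its surroundings. A peak is a stretch of high coverage and does not by itself show binding, and neither list measures expression.

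When a Notch receptor meets a ligand on a neighbouring cell, its inner part is cut off, moves to the nucleus and joins the DNA-binding protein RBPJ. HES and HEY genes are the best known targets of that complex and encode basic helix-loop-helix repressors that hold back proneural genes. In the inner ear Notch signalling first supports the prosensory regions and later, through HES and HEY proteins, keeps supporting cells from becoming hair cells. Nrarp encodes a small ankyrin repeat protein that binds the same complex and damps it.

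Start sites and the sequences before them were taken from RefSeq (GRCm38.p6, the build also called mm10), where 5 of the 8 genes matched, with 6 start sites. Hes1, Hey1 and Heyl were not among them. The 250 bases before the start are shown for the 4 genes whose promoters held either a full RBPJ-type match, GTGGGAA in either direction (Hes5, Hes7, Hey2), or a SOX core joined to an octamer (Nrarp), each match in capitals.
Hes5, chr4:154960673-154960922, + strand: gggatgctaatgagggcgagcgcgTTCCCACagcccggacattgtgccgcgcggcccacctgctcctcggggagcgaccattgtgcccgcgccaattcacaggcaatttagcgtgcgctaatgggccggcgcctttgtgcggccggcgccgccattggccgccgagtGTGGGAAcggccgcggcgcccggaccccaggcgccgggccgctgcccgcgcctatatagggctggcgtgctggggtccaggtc
Hes7, chr11:69120203-69120452, + strand: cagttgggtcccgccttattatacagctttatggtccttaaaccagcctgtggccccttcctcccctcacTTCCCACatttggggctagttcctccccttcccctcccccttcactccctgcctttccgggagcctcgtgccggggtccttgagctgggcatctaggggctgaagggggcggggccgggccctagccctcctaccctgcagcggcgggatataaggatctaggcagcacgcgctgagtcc
Hey2, chr10:30842784-30843033, - strand: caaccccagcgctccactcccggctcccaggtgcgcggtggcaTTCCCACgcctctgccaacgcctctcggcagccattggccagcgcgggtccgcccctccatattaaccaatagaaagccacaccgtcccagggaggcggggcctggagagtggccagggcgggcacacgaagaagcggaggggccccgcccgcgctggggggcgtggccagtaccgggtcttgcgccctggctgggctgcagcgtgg
Nrarp, chr2:25180508-25180757, + strand: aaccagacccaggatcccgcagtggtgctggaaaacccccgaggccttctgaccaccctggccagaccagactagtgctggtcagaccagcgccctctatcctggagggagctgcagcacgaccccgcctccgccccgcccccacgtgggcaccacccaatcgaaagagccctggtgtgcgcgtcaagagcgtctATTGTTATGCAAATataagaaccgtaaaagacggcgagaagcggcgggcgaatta

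In the table's windows of 300 bases (250 before the start and 50 after it) GTGGGAA was found at Hes5, Hes7 and Hey2, 3 of the 5 matched genes, and in 6.38% of all 32851 promoters. Hes5 held it in both directions, the reverse match beginning 226 and the forward match 83 bases before the start. Hey2 held it 207 bases before the start and again across the start itself, beginning 4 bases before it. The shorter core TGGGAA, which lies inside GTGGGAA, was found at the same 3 genes and in 25.6% of promoters. Of the SOX cores, AACAAT was found at Nrarp (10.7% of promoters) and ACAAAG at Hes5 and Hes6 (18.7%). Of sites read by HES and related proteins, CACGTG was found at Nrarp (7.15%), CACGCG at Hes7 (9.27%), and CACNAG at Hes6, Hes7 and Nrarp (42.5%). Further motifs were added after the sequences had been seen. ACAATG, another SOX core, was found at Hes5, in 2 copies, and in 12.6% of promoters. The octamer ATGCAAAT was found at Nrarp and in 1.74% of promoters. The joined form ATTGTTATGCAAAT, 55 bases before the Nrarp start, was read off the Nrarp sequence itself, so a match there was certain. It was found at Nrarp alone, 1 of 32851 promoters or 0.00304%, and this count is no support for a site. A SOX core beside an octamer is the arrangement that SOX2 and its POU-family partners are known to read. These are letter matches in a window and not shown sites.

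Peaks of both lists lay at the ends of 7 of the 8 genes, and Heyl had neither. For CHD7 the same held for 30.8% of all protein-coding genes, for SOX2 for 59.7%, and for both together for 28.3%. The 7 genes had 11 CHD7 and 12 SOX2 end peaks. Hes1 and Hes7 had 3 CHD7 end peaks each, a number reached by 0.0777% of protein-coding genes, and Hey2 had 3 SOX2 end peaks, a number reached by 2.86%. The stronger 50% of the CHD7 list kept 1 of the Hes1 peaks and all 3 of the Hes7 peaks. The 10000 strongest by maximum signal kept 0 and 1. The Hes7 peaks lie on tRNA genes, and such numbers depend on how a stretch of coverage is split into peaks. At the 5 genes with a known start, a CHD7 peak lay over a start of 4 (Hes6, Hes7, Hey2 and Nrarp) and a SOX2 peak over a start of 4 (Hes5, Hes6, Hey2 and Nrarp). Among 17492 protein-coding genes with a listed promoter 27.6% had CHD7 over a start and 41.4% had SOX2. Both lay over a start at Hes6, Hey2 and Nrarp, 3 of 5 genes, against 23.1%. Some of the end peaks also lay within 1 kb of an end of another coding gene. Without those, CHD7 remained at 5 genes, SOX2 at 4 and both at 3 (Hes1, Hey2 and Nrarp), where the same filter left 21.5%, 47.7% and 19.1% of all protein-coding genes. With the 10000 strongest peaks of each list CHD7 lay at the ends of 4 of the genes, SOX2 of 6 and both of 3, where all protein-coding genes gave 13.3%, 16.9% and 9.06%.

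**Figure D1:**
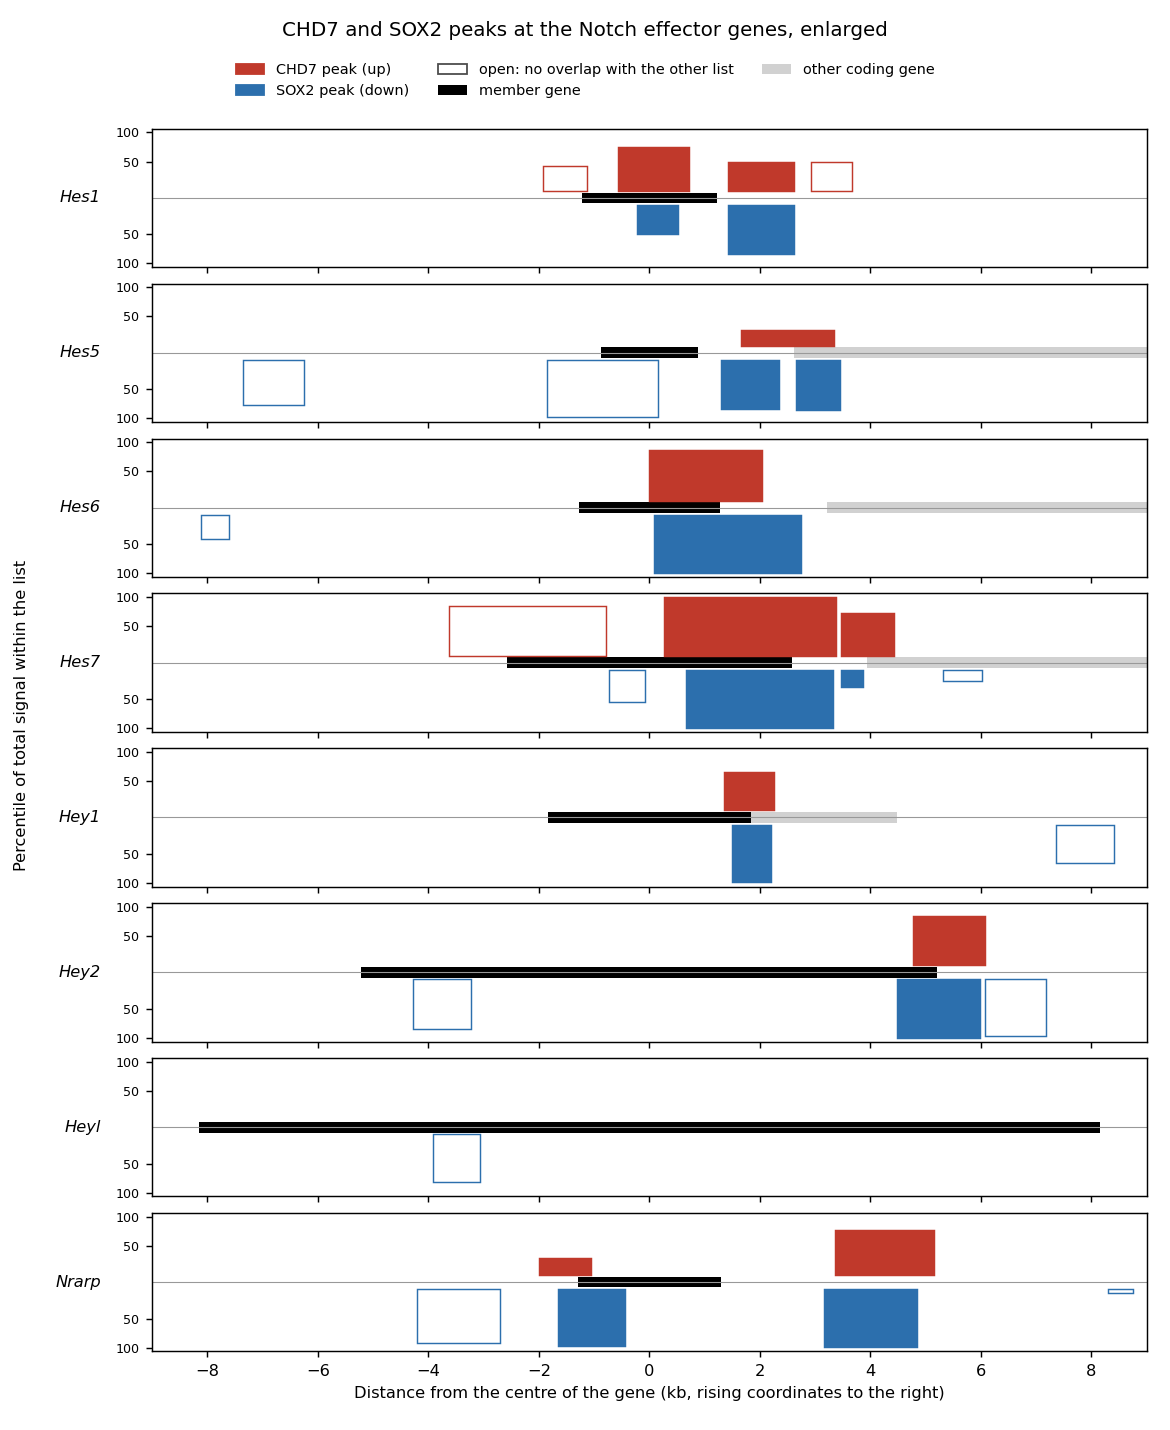
Peaks within 9 kb of the centre of each gene (x axis, kb). CHD7 peaks point up in red and SOX2 peaks down in blue, with the height giving the percentile of total signal within the list. Open boxes do not overlap the other list. Filled boxes stand at an end of every gene but Heyl, and open boxes mark the SOX2 peak over the Hes5 start and the CHD7 peak over the Hes7 start.

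Signal is the authors' coverage summed over a peak. Its scale is not given and differs between the lists, so values are compared within a list. Summed over end peaks, CHD7 signal ran from 524 at Hes5 through 537 at Nrarp, 797 at Hey1, 1207 at Hey2, 1329.9 at Hes6 and 2195 at Hes1 to 7459.99 at Hes7. The median of the 7 was 1207, against 797 over the 6742 genes with a CHD7 end peak. SOX2 signal ran from 2639 at Hes1 through 4017 at Nrarp, 4193 at Hey1, 5659 at Hes6, 5689 at Hes5 and 12667 at Hes7 to 12989.9 at Hey2, with a median of 5659 against 2053 over 13069 genes. All 7 exceeded that SOX2 median, whereas for CHD7 Hes5 and Nrarp lay below the median and Hey1 on it. Hes7 was at or near the top of both orders. Hes1 came next to Hes7 in the CHD7 sums and last in the SOX2 sums. Its CHD7 sum was made up of 3 peaks, and the strongest of them, 938, was below the single end peaks of Hes6 and Hey2. With a single library each, neighbours in these orders cannot be told apart by replicate error.

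**Figure D2:**
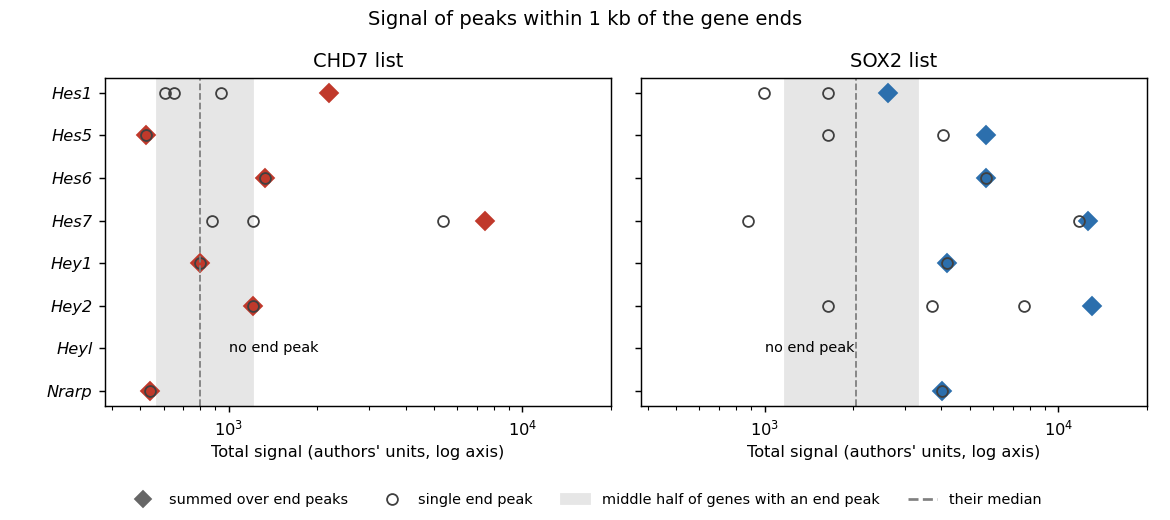
Total signal of peaks within 1 kb of the ends (x axis, authors' units, log scale), CHD7 on the left and SOX2 on the right. Diamonds are sums per gene, open circles are single peaks, the grey band spans the lower to the upper quartile of all coding genes with an end peak in that list and the dashed line is their median. The SOX2 diamonds lie to the right of that median for every gene with a peak.

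Hes1, a repressor expressed in many progenitor cells, lies on chr16:30065357-30067796 with no other protein-coding gene within 50 kb. Its CHD7 signal was concentrated on and beside the gene. A first CHD7 peak, chr16:30064651-30065450 (total signal 606), spanned the lower-coordinate end and had no SOX2 peak on it. A second, chr16:30066001-30067300 (938), lay inside the gene over a SOX2 peak at chr16:30066351-30067100 (997). A further one began 205 bases past the higher-coordinate end, in the lncRNA gene Gm32998. It had the same borders in both lists, chr16:30068001-30069200, with a total signal of 651 for CHD7 and 1642 for SOX2. These peaks covered 57.1% of the gene for CHD7 and 30.7% for SOX2, where the medians of all protein-coding genes were 0% and 4.34%. Hes1 is 2440 bases long and the median CHD7 peak 950 bases wide, so these shares also reflect the length of the gene. Further out there were 2 CHD7 peaks, 1.7 and 47.6 kb past the gene, and 8 SOX2 peaks, and none of them overlapped.

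Hes5, an effector of Notch in neural and sensory progenitors, lies on chr4:154960626-154962372. A SOX2 peak with a total signal of 4047 (percentile 97.6 of the SOX2 list) lay over its start and over both RBPJ-type matches printed above, at chr4:154959651-154961650, and no CHD7 peak overlapped it. SOX2 covered 58.7% of the gene, which is 1747 bases long, and CHD7 covered 0%. The CHD7 end peak of Hes5, chr4:154963151-154964850 (524), began 779 bases past the gene and ran over the lower-coordinate end of Pank4. It overlapped SOX2 peaks of total signal 1642 and 1730.03 there. Before the gene, both proteins had overlapping peaks 17976 bases away, at chr4:154942151-154942650 with the same borders in both lists (1321 for CHD7 and 2258 for SOX2), and 13.7 kb away, at chr4:154945951-154946950 in the CHD7 list (578 for CHD7 and 3929 for SOX2). In the Hes5 locus the highest CHD7 signal was therefore that of the distant one 17976 bases away and not that at the gene.

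Hes6, which in mouse opposes HES1 and favours neuronal differentiation, lies on chr1:91411483-91414038. A wide CHD7 peak of 2050 bases, chr1:91412751-91414800 (1329.9), and a SOX2 peak of 2650 bases, chr1:91412851-91415500 (5659), covered both of its RefSeq starts. The CHD7 signal was higher 7.91 kb away, inside the neighbouring clock gene Per2, where the peak chr1:91421951-91422800 reached 3202 (rank 745 in the CHD7 list) on a SOX2 peak of 2316. A further overlapping pair lay at the far end of Per2 (815 for CHD7 and 4926 for SOX2). The SOX2 peak over the Hes6 starts also lay within 1 kb of the near end of Per2. All 3 CHD7 peaks of the locus overlapped SOX2.

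Hes7, known from the segmentation clock of the trunk, lies on chr11:69118906-69124054 and carried the strongest peaks of the group in both lists. The CHD7 peak chr11:69121751-69124850 reached 5374 (rank 300 in the CHD7 list) and the SOX2 peak chr11:69122151-69124800 reached 11788 (rank 395 in the SOX2 list). They lay at the end of the gene opposite to its start, and the tRNA genes n-TRtct4, n-TLtag3 and n-TQctg6 are annotated within both peaks. Both peaks also lay at an end of the neighbouring gene Aloxe3. A smaller overlapping pair past the gene (874 for CHD7 and 880 for SOX2) contained the tRNA gene n-TKctt27. Over the Hes7 start a CHD7 peak of 2850 bases, chr11:69117851-69120700 (1211), had no SOX2 peak on it and also contained a tRNA gene, n-TGgcc5. The nearest SOX2 peak, chr11:69120751-69121400 (1056), began 298 bases downstream of the start and contained none. All 3 CHD7 and both SOX2 end peaks of Hes7 thus lay on tRNA genes, where 0.333% of all CHD7 peaks and 0.0810% of all SOX2 peaks did. Across the genome 163 of 408 annotated tRNA genes had a CHD7 peak and 182 a SOX2 peak. How the authors treated reads from near-identical tRNA copies is not given, and the part of the tRNA genes in the Hes7 values was not tested. The remaining CHD7 peaks of the locus lay with other genes. The strongest was chr11:69073401-69075050 (4122, rank 454) at Tmem107, and the clock gene Per1 had peaks of 1926 and 1544.

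Hey1, which with Hey2 acts in cardiovascular and inner ear development, lies on chr3:8663359-8667038. Its higher-coordinate end carried a CHD7 peak, chr3:8666551-8667450 (797), around a SOX2 peak, chr3:8666701-8667400 (4193, percentile 97.8). The same peaks lay at an end of the predicted coding gene LOC115489673, which overlaps Hey1. The other CHD7 peak of the locus, chr3:8701401-8702200 (1580.4), lay 34.4 kb away outside any annotated gene and did not overlap SOX2.

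Hey2, known in the cochlea from pillar cells, lies on chr10:30832359-30842783. A CHD7 peak, chr10:30842351-30843650 (1207), and a SOX2 peak, chr10:30842051-30843550 (7624, rank 988), lay over its start. A SOX2 peak of 3724 followed just upstream and another of 1642 lay at the opposite end. Neither overlapped a CHD7 peak, although the one of 3724 began at the base after the CHD7 peak over the start ended. The other 3 CHD7 peaks of the locus, 11.4, 13.6 and 28.9 kb past the opposite end, each overlapped SOX2. The nearest of them, chr10:30820351-30820950, lay in the lncRNA gene Gm30618 and had the same borders in both lists (729 for CHD7 and 1114 for SOX2). The farthest lay inside Ncoa7 (628 for CHD7 and 3431 for SOX2).

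Heyl, the remaining HEY gene, lies on chr4:123233556-123249870 and had no CHD7 peak within 50 kb. Its locus held 10 SOX2 peaks, the same number as the median of all protein-coding genes, 1 of them inside the gene (chr4:123237801-123238650, 1525). Loci with SOX2 peaks and no CHD7 peak made up 16.0% of all protein-coding genes.

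Nrarp lies on chr2:25180758-25183339. A CHD7 peak, chr2:25180051-25181000 (537, percentile 29.6 of the CHD7 list), and a SOX2 peak, chr2:25180401-25181600 (4017, percentile 97.6 of the SOX2 list), lay over its start and over the SOX core and octamer printed above. Except at the neighbouring gene Slc34a3, the CHD7 signal was higher away from the gene. It was 966 at chr2:25185401-25187200, 2.06 kb past the gene in the lncRNA gene Gm52547, over a SOX2 peak of 5219. It was 1503 at chr2:25160951-25161750, 19008 bases before the gene, over a SOX2 peak of 2874. All 5 CHD7 peaks of the locus overlapped SOX2, including peaks at the ends of Tubb4b (2068 for CHD7, the highest of the locus) and Slc34a3 (455).

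**Figure D3:**
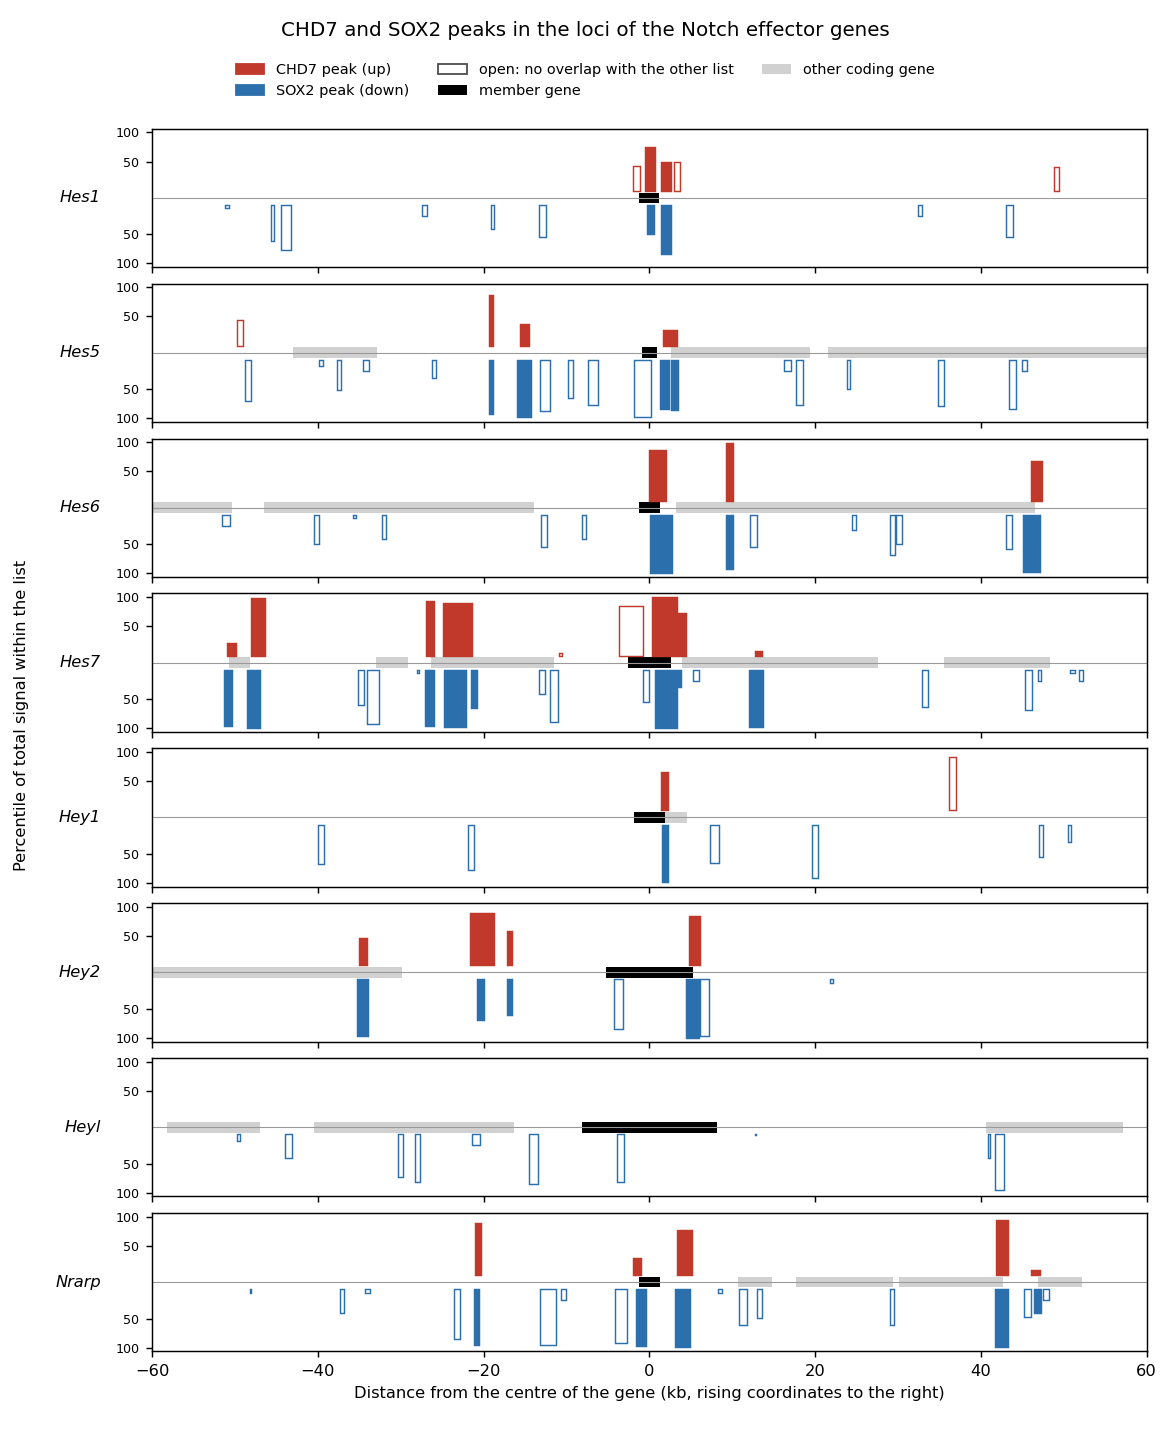
Peaks within 60 kb of the centre of each gene (x axis, kb), drawn as in the enlarged plot, with the gene in black and other coding genes in grey. Away from the genes most CHD7 boxes are filled and most SOX2 boxes are open, and the Heyl row holds no CHD7 box.

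The median locus of the group held more peaks of both lists than that of all protein-coding genes, with wide differences among the members. CHD7 peaks numbered 9 at Hes7, 5 at Hes1 and Nrarp, 4 at Hes5 and Hey2, 3 at Hes6, 2 at Hey1 and 0 at Heyl, with a median of 4 against 2 over all protein-coding genes. SOX2 peaks numbered 20 at Hes7, 19 at Hes5, 18 at Nrarp, 14 at Hes6, 10 at Hes1 and Heyl, and 7 at Hey1 and Hey2, with a median of 12 against 10. Per 100 kb of locus the medians were 3.78 against 1.54 for CHD7 and 11.7 against 7.41 for SOX2. At least 1 CHD7 peak was present in 7 of the 8 loci, as in 82.9% of all loci, and at least 1 shared CHD7 peak was present in the same 7, against 74.6%. Of the 32 CHD7 peaks 11 lay at an end of the gene itself, 7 at an end of another coding gene and 14 elsewhere. Of the 105 SOX2 peaks these places held 12, 19 and 72, and 2 lay inside a gene of the group away from its ends. The SOX2 end peaks had a median percentile of 97.4 in their list, against 55.6 for those elsewhere. The CHD7 medians at these places were 71.8 and 67.9. Such percentiles were not taken for the end peaks of all protein-coding genes. Over all genes with a SOX2 end peak the summed end signal had a median of 2053, against 997 for single peaks of the whole SOX2 list. High SOX2 signal at ends is therefore not particular to the group. The 23 other coding genes within 50 kb include Per1 beside Hes7 and Per2 beside Hes6, and 8 of the 23 had a CHD7 and 17 a SOX2 end peak, where 30.8% and 59.7% of all protein-coding genes did.

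**Figure D4:**
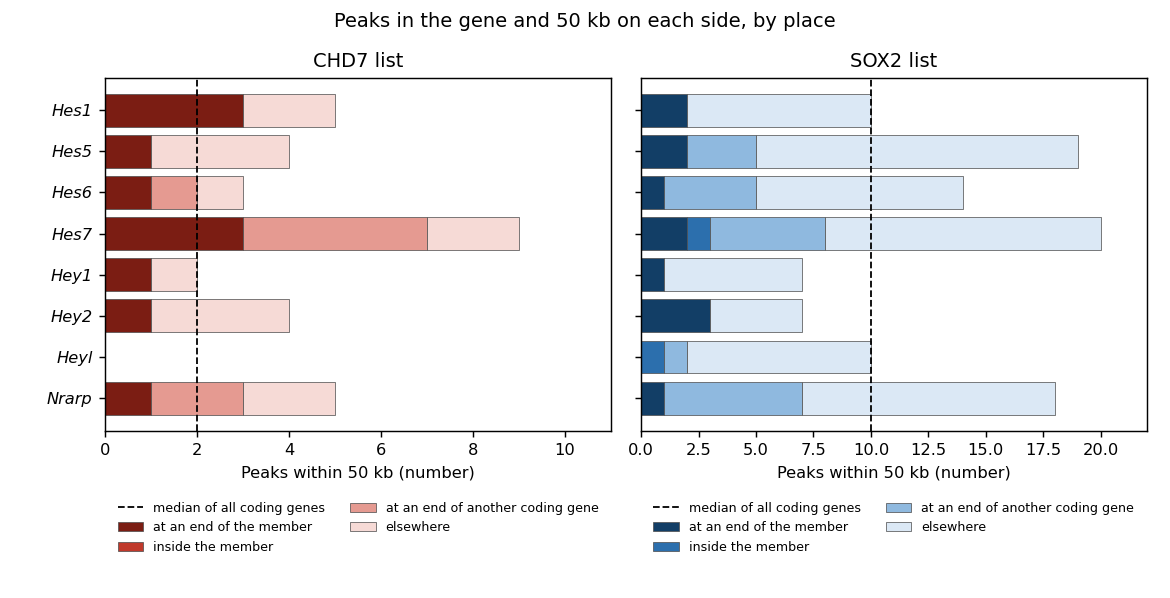
Number of CHD7 (left) and SOX2 (right) peaks in each gene with 50 kb on either side (x axis), split by place in shades. The dashed line is the median of all protein-coding genes, 2 for CHD7 and 10 for SOX2. Hes7 has the longest bar in both lists, and Heyl has no CHD7 bar.

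Most CHD7 peaks of the loci lay on a SOX2 peak, 25 of 32 or 78.1% (exact 95% binomial interval 60.03% to 90.7%). The intervals given here cover counting error only. They treat peaks as independent although many share a locus, and they test no difference. Among all CHD7 peaks within 50 kb of a protein-coding gene 67.9% did (67.3% to 68.5%), a value inside the interval of the group. At the ends 9 of 11 CHD7 peaks overlapped SOX2, against 85.7% at the ends of all protein-coding genes. Away from them 16 of 21 did, 76.2% (52.8% to 91.8%). The unshared CHD7 peaks were 3 at Hes1, 2 at Hes7 and 1 each at Hes5 and Hey1. Loci with at least 2 CHD7 peaks, all of them on SOX2, were 3 of 8 (Hes6, Hey2 and Nrarp), against 22.4% of all loci. In the other direction 27 of 105 SOX2 peaks overlapped CHD7, 25.7% (17.7% to 35.2%), against 14.8% (14.6% to 15.1%) near all protein-coding genes. The 14.8% lies below the interval of the group, which tests no difference. At the ends 9 of 12 SOX2 peaks overlapped CHD7, 75% (42.8% to 94.5%), against 35.0% at the ends of all protein-coding genes, likewise below the interval. Away from the ends of the group 18 of 93 did, 19.4% (11.9% to 28.9%). The 14.8% includes peaks at gene ends and is therefore no like comparison for this share. The share fell to 56.2% of CHD7 peaks when the 10000 strongest peaks of each list were used, and 7 of 32 remained shared when the regions of maximum signal had to meet.

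The rest of the Notch pathway was described from lists of 58 further genes. CHD7 end peaks were found at 30 of them, SOX2 at 50 and both at 29, or 51.7%, 86.2% and 50%. The effector genes gave 87.5% for each, and all protein-coding genes 30.8%, 59.7% and 28.3%. All 4 receptor genes had end peaks of both lists. Of the 7 ligand genes 6 had SOX2 and 1 had CHD7. That one was Jag1, the ligand of prosensory cells (1061 for CHD7 and 6392 for SOX2), and Dll3 had neither. The nuclear partners had CHD7 at 4 and SOX2 at 5 of 7. Maml2, a coactivator gene, had both (997 for CHD7 and 2199 for SOX2), while Rbpj and the corepressor gene Spen had neither. CHD7 and SOX2 lay at 2 and 5 of 5 fringe and glycosylation genes, where Lfng had 861 for CHD7 and 9442 for SOX2. They lay at 3 and 5 of 7 genes for receptor cleavage, with Adam10 at 1362 and 2229, and at 8 and 10 of 11 genes for ligand or receptor turnover, with Fbxw7 at 1334 and 5629.9.

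Genes that act with or after the HES proteins differed among themselves. The Groucho corepressors, which HES proteins recruit, had CHD7 at 4 and SOX2 at 6 of 6 genes, and Tle3 (4850.4 for CHD7 and 9178 for SOX2) and Tle1 (2569 and 9149) had more end signal than 7 of the 8 effector genes for CHD7. Related bHLH genes had CHD7 at 2 and SOX2 at 4 of 5, with both at Bhlhe40 and Bhlhe41 and neither at Hes2. Proneural genes, the usual targets of HES repression, had CHD7 at 2 and SOX2 at 5 of 6. Neurog2 (1257 and 5366) and Neurog1 (455 and 2287) had both. Limited to 10000 peaks per list by strength, the 58 genes had CHD7 at 12, SOX2 at 15 and both at 7, beside the 13.3%, 16.9% and 9.06% of all protein-coding genes.

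**Figure D5:**
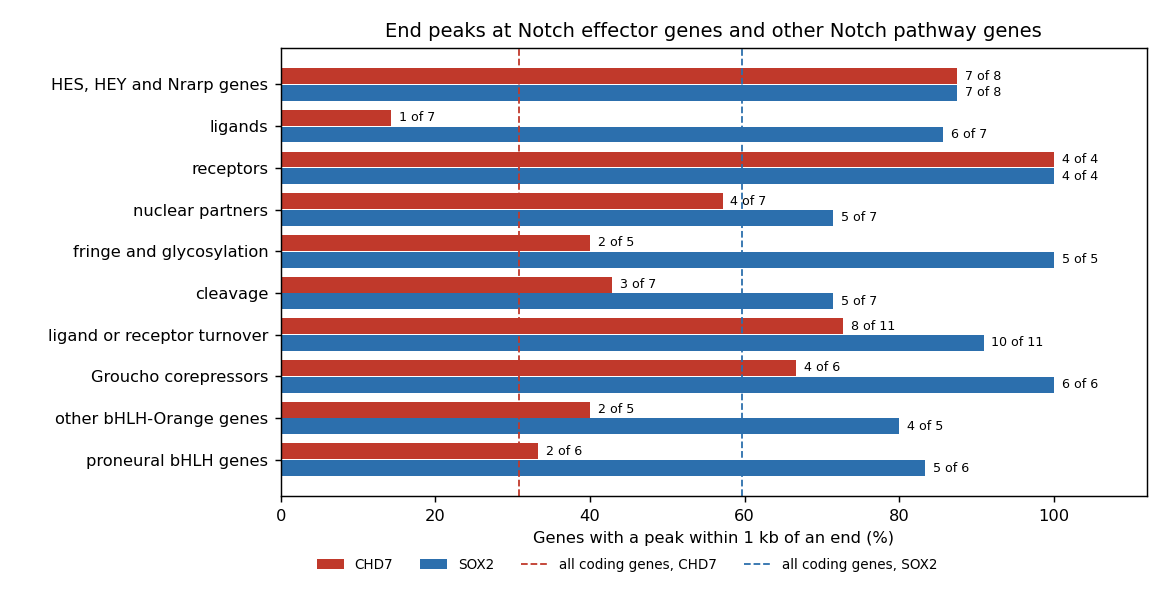
Share of genes with a peak within 1 kb of an end (x axis, %), for the HES, HEY and Nrarp genes at the top and lists of other Notch pathway genes below, CHD7 in red above SOX2 in blue. Dashed lines are the shares of all protein-coding genes, 30.8% for CHD7 and 59.7% for SOX2. The shortest CHD7 bar is that of the ligands, 1 of 7, and a list this short does not set them apart from all protein-coding genes.

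The genes most alike in 5 measures (end signal of CHD7 and of SOX2, and CHD7, SOX2 and shared peaks within 50 kb, each as a percentile among protein-coding genes) were sought over these 2 libraries. For Heyl 68 genes had the identical pattern, a sum of differences of 0. Hes6 and Ubap2l differed by 2.26 percentile points in all, and Hey2 and Cep290 by 3.25. The nearest to Hes7 was the histone gene H2bc22 (5.60), to Hes5 Rhpn1 (6.29), to Hey1 Zfp433 (7.02), to Nrarp Bricd5 (7.69) and to Hes1 Dph1 (8.63). As a check of the tissue, otocyst marker genes had CHD7 at the ends of 7 and SOX2 at the ends of 10 of 14. Markers of periotic mesenchyme had them at 5 and 6 of 6, of neural crest at 1 and 3 of 4, of hindbrain at 2 and 3 of 4, of blood at 1 and 3 of 4, and of endothelium at 0 and 3 of 4. All protein-coding genes gave 30.8% and 59.7%, and lists this short do not set the otocyst apart from the other tissues.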

How the data were processed

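CUT&Tag of wild-type E10.5 otocyst cells gave 1 peak list per antibody. The submitters' processing notes list Bowtie2, deepTools, SEACR and the build mm10. Versions, settings, how the control entered and what was done with duplicates are not given there. Each deposited peak has a total and a maximum coverage signal, the authors' values, whose scaling is not given. Read depth is unknown, and the number of peaks limits precision. Totals equal after rounding to a whole number were ranked as ties within a list.

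Gene borders came from a RefSeq table of GRCm38.p6 (21887 protein-coding genes outside the mitochondrial genome) and start sites from 32851 RefSeq promoters. These are outer borders and do not separate exons from introns. Coordinates count from 1. A peak was shared with at least 1 base in common. Intervals are exact binomial (Clopper-Pearson, 95%). Classes were taken in the order end of the gene, inside it, end of another coding gene, elsewhere.

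Members, lists and settings were chosen with earlier results of these data known. All 8 genes were named, with neighbours within 50 kb, up to 2 genes per pathway list with both end peaks (by the worse rank of end signal) and up to 2 with neither, of which some are printed, and the most alike gene. The tRNA and lncRNA genes, and the genes of the closing section, were picked with their values in view. Motifs were searched on both strands. Results for some genes are not reported here. A planned comparison of protein sequences was not run. Counting was tested on simulated data. Window sizes, peak thresholds, ranking by maximum signal and the overlap rule were varied. Software was Python 3.11.15 with pandas 2.3.3, scipy 1.17.1, numpy 2.4.6 and, for plots, matplotlib 3.10.9.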

Additional observations from a re-analysis of the deposited data

How the results depend on the processing

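No paired analysis was possible because each antibody had 1 library, and for the same reason no library could be left out. Of 65 alternative values of the group and pathway counts 32 stayed within 1.5 times the main value (the share of shared peaks within its interval) and 33 did not. The genes with an end peak numbered 4 (CHD7), 6 (SOX2) and 3 (both) with the 10000 strongest peaks, and 1, 4 and 1 when these were chosen by maximum signal, where all protein-coding genes gave 8.97%, 10.1% and 5.03%. They numbered 5, 4 and 3 without peaks at the end of another gene, an alternative added after seeing the data. When 1 kb around the start was used, they numbered 4, 5 and 4 of the 5 genes with a known start. The share of all protein-coding genes in that window was not taken, so these counts have nothing to be set against. With the 10000 strongest peaks the pathway genes numbered 12, 15 and 7. CHD7, SOX2 and shared CHD7 peaks of the loci numbered 13, 19 and 10 with 5 kb on each side, 22, 52 and 18 with 20 kb, and 54, 195 and 40 with 100 kb, as smaller and larger windows must. They numbered 19, 67 and 15 with the stronger 50% of peaks, 16, 20 and 9 with the 10000 strongest, and 9, 13 and 4 with those chosen by maximum signal. With the SOX2 list at the length of the CHD7 list there were 37 SOX2 peaks. Shared peaks numbered 7, or 21.9% of CHD7 peaks, when the maximum-signal regions had to meet. The share was 56.2% with the 10000 strongest peaks and 44.4% by maximum signal. End windows of 500 bases and 2 kb kept every group and pathway count within 1.5 times.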

Other observations

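Besides Hes1 and Hes7, the corepressor gene Tle3 and the homeobox gene Dlx1 were among the 17 protein-coding genes with at least 3 CHD7 end peaks. At least 3 SOX2 end peaks were found at 626 genes. Several narrow peaks and a single wide one can cover the same bases, and the Hes6 start lay under 1 CHD7 peak of 2050 bases.

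CHD7 and SOX2 peaks with identical borders occurred at Hes1, Hes5 and Hey2, 3 of the 25 shared CHD7 peaks of the loci (12%, exact 95% binomial interval 2.55% to 31.2%, counting error only). Among all 21586 shared CHD7 peaks 510 had identical borders, or 2.36%. All peak starts, and all peak ends but 1 in the CHD7 list and 2 in the SOX2 list, lie on bins of 50 bases.

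Among promoters with a SOX2 peak over the start AACAAT was found in 5.23%, against 10.7% of all promoters, and ACAAAG in 13.5%, against 18.7%. With a CHD7 peak over the start these shares were lower as well, 4.4% for AACAAT and 11.3% for ACAAAG. The lower shares were therefore not particular to SOX2 peaks. CACGCG went the other way, at 17.1% with the SOX2 peak and 19.6% with the CHD7 peak, against 9.27% of all promoters. CACGTG was also more frequent with either peak. These differences were not tested. GTGGGAA was found in 5.99% of promoters with the SOX2 peak, 5.53% of those with the CHD7 peak and 6.38% of all.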
